A study of Mus musculus with 9 samples.

Results

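Transcripts of 10 genes that make, activate or read out transforming growth factor beta (TGF-beta) were followed in sorted regulatory T cells (Tregs), a CD4 lineage defined by the transcription factor Foxp3 that dampens immunity. The genes were chosen by symbol: the ligands Tgfb1 and Tgfb3, the docking receptor Lrrc32, the convertase Furin, the receptors Tgfbr1 and Tgfbr2, the signal carrier Smad3, its inhibitor Smad7 and the corepressors Ski and Skil. All 10 had a row, 1 each, among the 21022 named genes of the array. The cells were CD4+ GFP+ lymphocytes sorted from mice of the C57BL/6 background and the Foxp3EGFP genotype, which report Foxp3 as green fluorescence, aged 8 to 12 weeks. The groups were resolving lung and resolving spleen, both from mice given Escherichia coli lipopolysaccharide at 3 mg/kg into the airway, and control lung from uninjured mice, with 3 Affymetrix Mouse Gene 2.1 ST arrays in each. All groups carried the same reporter and were sorted through the same gate. Neither the harvest day nor the number of animals behind an array was given in the sources used here, so the p-values reflect how far these samples scatter, and that scatter may be technical. Resolving spleen replicates 2 and 3 have separate titles but 1 shared description, so the labels leave in doubt whether they are separate samples. Their values were not the same: 5.41% of the 21022 genes were identical, against 4.07% to 5.07% in the other pairs of arrays within a group, and their root mean square difference was 0.218, the smallest of the 9 pairs but close to the 0.232 of resolving spleen replicates 1 and 3. They were counted as 2 samples, and without replicate 2 or replicate 3 the call of Smad7 below held and that of Tgfbr1 did not.

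TGF-beta is secreted in a latent form, in which the mature cytokine stays wrapped in the propeptide that furin has cut from it. Tregs hold this latent complex on their surface through GARP, the product of Lrrc32, and integrins release the cytokine from it. The freed cytokine joins the type II receptor (Tgfbr2) to the type I receptor (Tgfbr1), which phosphorylates Smad2 and Smad3. These enter the nucleus with Smad4, where SKI and SnoN (the product of Skil) hold them in check, while Smad7 shuts the receptor off. TGF-beta is known for its part in making peripheral Tregs and in keeping T cells at mucosal surfaces.

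Values are log2 expression values as deposited, so a difference of 1 is a doubling, and levels were compared between samples and not between genes. Foxp3 averaged 10.58 ± 0.16 in resolving lung, 10.69 ± 0.05 in resolving spleen and 10.67 ± 0.04 in control lung (SD, n = 3 each), and each of 6 measured Treg markers exceeded the dim level on every array. The dim level of an array was the 95th percentile of its 915 olfactory receptor genes, between 3.32 and 3.52. Transcripts of other cells were present too. Resolving lung replicate 1 stood apart: its 7 measured macrophage markers averaged 7.72, against 5.14 and 5.20 in the other two arrays of its group, and its 5 fibroblast markers averaged 5.46, against 2.38 and 2.42. Control lung replicate 1 had higher fibroblast (3.69, against 2.23 and 2.24) and endothelial (5.83, against 3.68 and 4.11) averages than the other two control arrays. Xist, named here after its values had been seen, read 2.44 on the first resolving lung array and 2.33 on the first resolving spleen array. On the other seven arrays it read 8.23 to 9.13. The Y-linked gene Ddx3y was highest on those same first arrays, at 8.21 in resolving lung and 8.11 in resolving spleen. On the remaining arrays it read 6.89 to 7.99, and the cause of the Xist and Ddx3y readings was not tested. The number of arrays limited the precision, and in sorted bulk samples fewer cells of a type and less RNA per cell cannot be told apart.

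Resolving lung was set against control lung to follow injury within 1 organ, and against resolving spleen to follow the organ within injured mice. The lung groups also differed in transcripts of other cells. The 6 epithelial markers averaged 6.25 to 6.94 in resolving lung and 8.01 to 9.17 in control lung. With limma 3 of the 6 were lower in resolving lung at an adjusted p under 0.05 (0.323% of all genes). The part of these cells in the differences between the lung groups was not tested. Resolving spleen against control lung completes the set, but organ and injury differ together there and cannot be told apart. Each group enters 2 of the 3 comparisons, so they share arrays and are not independent. Over all genes, 96 (0.457%) passed an adjusted p of 0.05 with limma between resolving lung and control lung, 1150 (5.47%) between resolving lung and resolving spleen and 1295 (6.16%) between resolving spleen and control lung. Of the 10 genes, 0, 0 and 2 passed in these comparisons, the 2 being Smad7, lower in resolving spleen, and Tgfbr1, higher in resolving spleen, each than in control lung. A count this small does not set the 10 genes apart from the background. At an unadjusted p under 0.05 the counts were 3 of 10 between resolving lung and control lung (14% of all genes), 4 of 10, all higher in resolving lung, between resolving lung and resolving spleen (18.8%) and 6 of 10 between resolving spleen and control lung (18.8%). By direction, the first count held 1 higher and 2 lower (7.61% and 6.4% of all genes), the second 4 higher and 0 lower (8.2% and 10.6%) and the third 1 higher and 5 lower (11.3% and 7.55%). The same split of the adjusted calls over all genes was 0.133% higher and 0.323% lower in the first comparison, 2.65% and 2.82% in the second and 3.49% and 2.67% in the third.

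**Figure D1:**
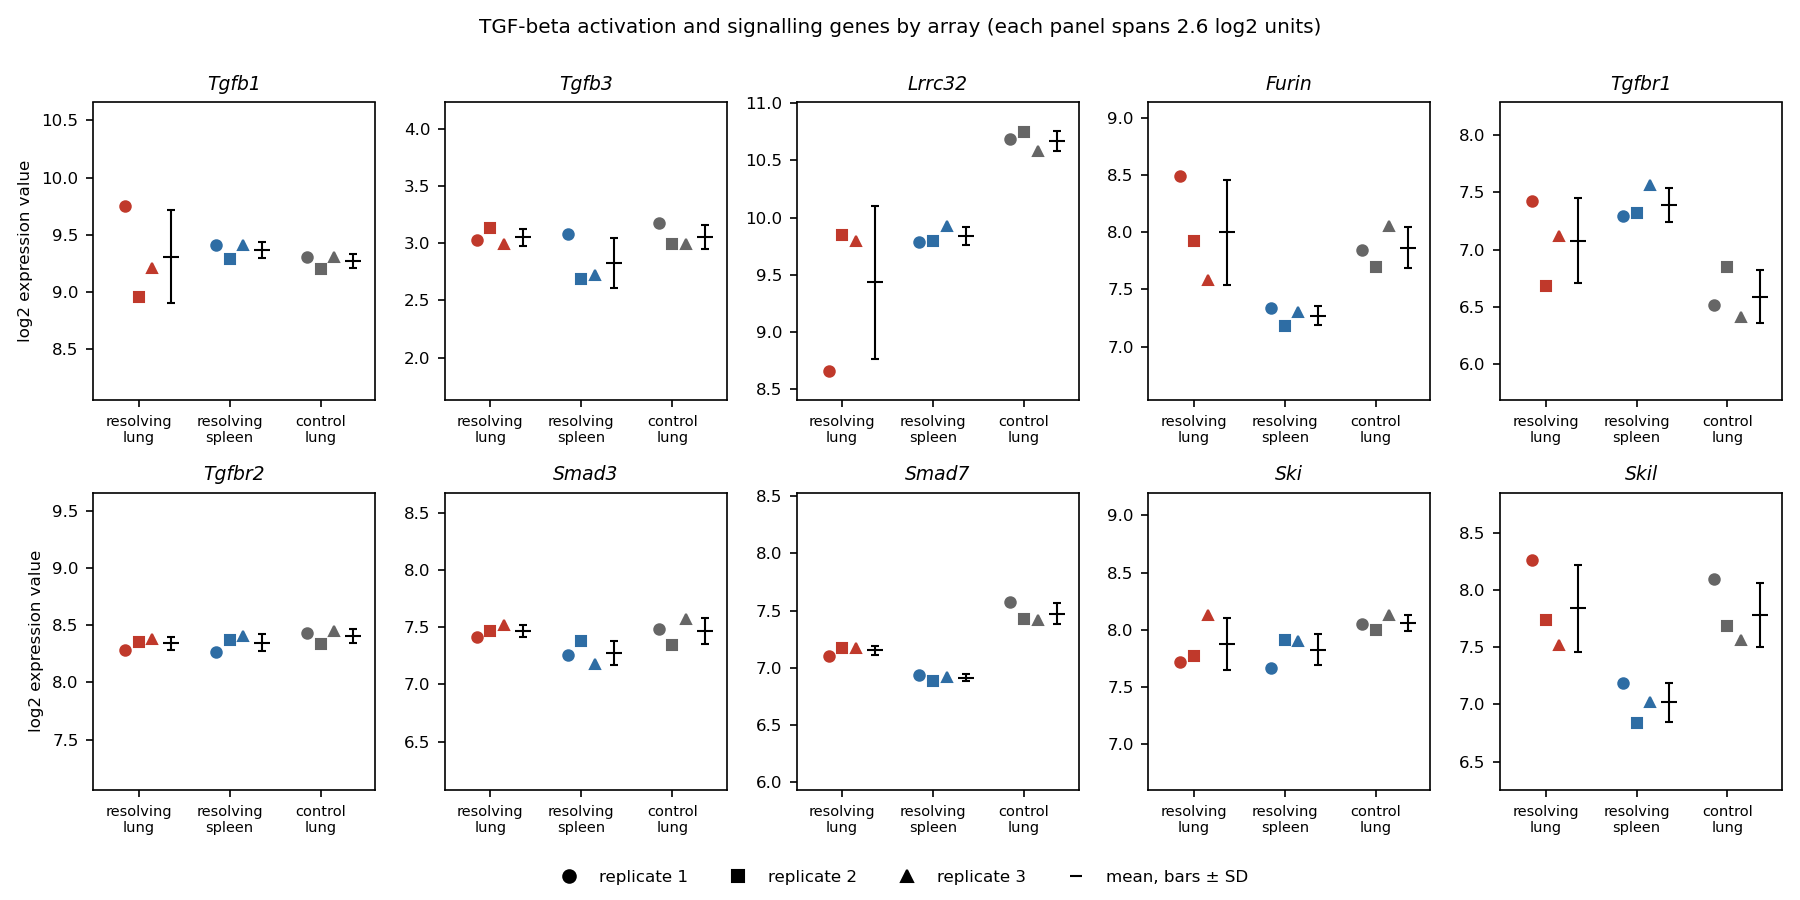
Log2 expression value of each of the 10 genes on the y axis in every array, by group on the x axis (resolving lung, resolving spleen, control lung). Circles, squares and triangles are replicates 1, 2 and 3, and the bar beside each group is the mean ± SD (n = 3). All panels span the same height; Lrrc32 in control lung lies between 10.58 and 10.75, above all arrays of the other groups, and the Smad7 values of the 3 groups do not overlap.

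Tgfb1 encodes the ligand that T cells chiefly make. It was at 9.75, 8.96 and 9.21 in the 3 resolving lung arrays, 9.41, 9.29 and 9.41 in resolving spleen and 9.31, 9.20 and 9.30 in control lung. The resolving lung arrays spanned both other groups, and no pair of groups was separate. The difference between resolving lung and control lung was 0.037 (SE 0.17, 95% interval -0.36 to 0.44, limma adjusted p = 0.950), and its sign depended on replicate 1, without which it was -0.19. The differences were -0.059 (95% interval -0.46 to 0.34) between resolving lung and resolving spleen and 0.096 (95% interval -0.30 to 0.49) between resolving spleen and control lung. Differences within these intervals were not detectable with these arrays.

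Tgfb3, the ligand known from palate fusion and from pathogenic helper T cells, read 2.69 to 3.17, under the dim level on every array. Its differences compare background readings, so no fold change or direction is given for it.

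Lrrc32 had the widest span of group means of the 10 genes, 1.24 log2 units. Its values were 8.66, 9.85 and 9.79 in resolving lung, 9.79, 9.79 and 9.93 in resolving spleen and 10.69, 10.75 and 10.58 in control lung. Control lung was highest and did not overlap either group from injured mice, whose ranges overlapped each other. Resolving lung lay 1.24 log2 units below control lung (difference -1.24, SE 0.28, 95% interval -1.87 to -0.60), a 2.36-fold lower value that did not pass the threshold (limma adjusted p = 0.105). Without resolving lung replicate 1 the difference was smaller, -0.85, but its SE was 0.080 and it passed (adjusted p = 0.0262). Over the 20 alternative settings the adjusted p lay between 0.0262 and 0.285, and that setting was the single one to pass. Without replicate 1 of both lung groups the difference was -0.84 (adjusted p = 0.0532).

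Resolving spleen lay 0.84 below control lung in Lrrc32 (difference -0.84, SE 0.28, limma adjusted p = 0.138). The arrays of those 2 groups were tight, with an SD of 0.080 in resolving spleen and 0.086 in control lung. The fit shares 1 estimate of spread over all 9 arrays, and the SD in resolving lung was 0.67. With only the arrays of these 2 groups the SE was 0.073 (adjusted p = 0.00412), and without resolving lung replicate 1 it was 0.072 (adjusted p = 0.00108). The adjusted p lay between 0.00108 and 0.304 over the 20 alternatives, and 4 of them passed. Resolving lung against resolving spleen gave -0.40 (SE 0.28, 95% interval -1.04 to 0.23, adjusted p = 0.516), which shrank to -0.015 without resolving lung replicate 1. In that array the macrophage, fibroblast, endothelial and neutrophil marker averages were all the highest of the group, and their part in its low Lrrc32 value was not tested.

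Furin encodes the protease that separates the TGF-beta propeptide from the mature cytokine. It was at 8.49, 7.93 and 7.58 in resolving lung, 7.33, 7.18 and 7.30 in resolving spleen and 7.84, 7.70 and 8.06 in control lung. The 3 resolving spleen arrays lay below all 6 lung arrays, and both lung groups overlapped. Resolving lung was 0.73 above resolving spleen (SE 0.21, 95% interval 0.25 to 1.20, limma adjusted p = 0.0901), a 1.66-fold difference short of the threshold. It passed in 2 of 21 alternatives, among genes above the dim level (adjusted p = 0.0444) and without resolving lung replicate 3 (adjusted p = 0.0293), over a range up to 0.223. Resolving spleen was 0.60 below control lung (difference -0.60, SE 0.21, limma adjusted p = 0.156). That difference passed in 2 of 20 alternatives, with only the arrays of these 2 groups (adjusted p = 0.0255) and without resolving lung replicate 1 (adjusted p = 0.0258), over a range up to 0.351. Between resolving lung and control lung the difference was 0.13 (95% interval -0.34 to 0.61, adjusted p = 0.826). Without resolving lung replicate 1, whose Furin value was 0.74 above the mean of the other two arrays, the last difference was -0.11 and that against spleen 0.48.

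Promoter windows from RefSeq (build GRCm38.p6, 250 bases before to 50 bases after a transcript start) matched 6 of the 10 genes in 8 windows. They were searched for CAGAC or its complement GTCTG, the short element that SMAD proteins bind, and for the palindrome GTCTAGAC, on both strands. The short element was in 4 of 8 windows, against 49.6% of all 32851 windows, and the palindrome was in 0 of 8, against 0.213% of all windows. The 2 Furin windows are shown because Furin is the convertase among the 10 and had the element in both, with the 5 bases of each match in capitals. They lie on the minus strand at chr7:80402763-80403062 and chr7:80405387-80405686. The matches begin 190 bases before the start in the first, and 163 and 44 bases before it in the second.
Furin, inner start: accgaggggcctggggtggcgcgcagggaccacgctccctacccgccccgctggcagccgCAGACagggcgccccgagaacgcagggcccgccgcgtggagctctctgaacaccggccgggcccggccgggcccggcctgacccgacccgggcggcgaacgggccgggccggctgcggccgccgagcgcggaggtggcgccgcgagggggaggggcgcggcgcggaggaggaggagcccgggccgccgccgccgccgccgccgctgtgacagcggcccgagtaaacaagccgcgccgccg
Furin, outer start: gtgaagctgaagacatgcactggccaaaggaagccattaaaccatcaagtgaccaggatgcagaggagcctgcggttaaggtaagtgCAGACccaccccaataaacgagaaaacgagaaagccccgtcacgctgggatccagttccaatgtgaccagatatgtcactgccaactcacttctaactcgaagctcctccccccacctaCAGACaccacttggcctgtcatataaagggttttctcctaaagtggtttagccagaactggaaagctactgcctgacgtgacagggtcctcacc
A match of this length is a description of the letters and not of binding, and its share was close to that of all promoter windows.

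Tgfbr1 encodes the type I receptor, the kinase that phosphorylates Smad2 and Smad3. Its values were 7.43, 6.69 and 7.12 in resolving lung, 7.30, 7.32 and 7.56 in resolving spleen and 6.51, 6.85 and 6.41 in control lung. Resolving spleen was highest and did not overlap control lung, while resolving lung reached into both. Resolving spleen exceeded control lung by 0.80 (SE 0.19, 95% interval 0.36 to 1.24), a 1.74-fold higher level that passed narrowly (limma adjusted p = 0.0470). The call was lost in 11 of 20 alternatives, with an adjusted p between 0.0207 and 0.151. It was lost without any 1 of the 6 arrays of these 2 groups, where the adjusted p lay between 0.0521 and 0.151, without resolving lung replicate 3 (0.0726), and with the replicate number as a block (0.0907). The call was also lost with quantile normalization, with all rows tested and without replicate 1 of both lung groups. The sign held in all 20. Resolving lung was 0.49 above control lung (SE 0.19, limma adjusted p = 0.303) and 0.32 below resolving spleen (difference -0.32, SE 0.19, adjusted p = 0.447).

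Markers of other cells were read from the same arrays. The 5 B cell markers averaged 6.01 to 7.25 in resolving spleen and 5.76 to 5.79 in control lung, with 5 of 5 and 4 to 5 of 5 above the dim level. The 6 epithelial markers averaged 3.30 to 4.69 and 8.01 to 9.17 in these groups, with 2 to 5 and 6 of 6 above the dim level. The 7 macrophage markers averaged 4.93 to 5.76 in resolving spleen and 4.25 to 5.60 in control lung, with 5 and 4 to 6 above the dim level, and the 5 fibroblast markers were below the dim level in all 3 resolving spleen arrays. The part of these cells in the spleen differences was not tested.

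The 2 Tgfbr1 windows are shown because it is the called gene that had RefSeq windows. They lie on the plus strand at chr4:47352972-47353271, which holds no match, and at chr4:47385966-47386265, where the match, in capitals, begins 203 bases before the start.
Tgfbr1, first start: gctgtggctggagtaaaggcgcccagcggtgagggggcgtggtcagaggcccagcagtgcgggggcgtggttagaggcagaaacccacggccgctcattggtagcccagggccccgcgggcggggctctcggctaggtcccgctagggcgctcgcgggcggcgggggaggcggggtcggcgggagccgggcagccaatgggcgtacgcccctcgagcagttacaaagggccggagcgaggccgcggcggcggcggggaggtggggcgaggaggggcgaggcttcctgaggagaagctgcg
Tgfbr1, second start: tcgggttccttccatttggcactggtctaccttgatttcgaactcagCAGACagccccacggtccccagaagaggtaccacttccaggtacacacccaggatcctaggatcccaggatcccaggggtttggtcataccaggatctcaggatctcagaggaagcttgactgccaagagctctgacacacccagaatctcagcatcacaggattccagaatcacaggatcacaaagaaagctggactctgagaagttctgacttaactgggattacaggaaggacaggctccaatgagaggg
The first is rich in G and C (74.7%, against a median of 52.7% over all windows), and the second is not (52.0%).

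Tgfbr2 encodes the type II receptor, which binds the ligand first. It was the flattest of the 10 genes in group means, with 8.28, 8.36 and 8.38 in resolving lung, 8.27, 8.37 and 8.40 in resolving spleen and 8.43, 8.34 and 8.45 in control lung. All groups overlapped. The difference from control lung was -0.064 in resolving lung (95% interval -0.21 to 0.085) and -0.056 in resolving spleen (95% interval -0.21 to 0.093). These intervals leave out a change of the size seen for Tgfbr1 between resolving spleen and control lung. The RefSeq window of Tgfbr2, with 1 match of the short element 160 bases before the start, is not shown.

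Smad7 encodes the inhibitory SMAD that recruits ubiquitin ligases to the active receptor, and its own transcription is known to be switched on by TGF-beta signalling. It was at 7.10, 7.18 and 7.18 in resolving lung, 6.94, 6.88 and 6.92 in resolving spleen and 7.58, 7.43 and 7.41 in control lung. The groups formed 3 separate ranges, with resolving lung in the middle, resolving spleen lowest and control lung highest. Resolving spleen was 0.56 below control lung (difference -0.56, SE 0.064, 95% interval -0.71 to -0.41), which is 1.47-fold lower and passed the threshold (limma adjusted p = 0.00244). It passed in all 20 alternatives, with differences between -0.59 and -0.51 and adjusted p-values between 0.00123 and 0.0134.

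The 2 smaller steps in Smad7 did not pass. Resolving lung was 0.32 below control lung (difference -0.32, SE 0.064, limma adjusted p = 0.0791, 1.25-fold lower) and 0.24 above resolving spleen (SE 0.064, adjusted p = 0.0774, 1.18-fold higher). In the first, 0 of 20 alternatives passed, with an adjusted p between 0.0716 and 0.246. In the second, 1 of 21 passed, the fit with array weights (adjusted p = 0.0486, range 0.0486 to 0.194). Smad7 also had the smallest spread within groups of the 10 genes, a pooled SD of 0.060, against a median of 0.13 over all genes.

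Smad3 encodes the receptor-activated SMAD that carries the signal to DNA. It was at 7.42, 7.47 and 7.52 in resolving lung, 7.26, 7.38 and 7.18 in resolving spleen and 7.48, 7.35 and 7.57 in control lung. The lung groups overlapped throughout, and their difference was -7.4e-04 (95% interval -0.19 to 0.18, limma adjusted p = 0.998). Resolving spleen was lowest in mean, 0.19 below control lung (difference -0.19, SE 0.081, adjusted p = 0.247), and resolving lung was 0.19 above resolving spleen (SE 0.081, adjusted p = 0.248). The resolving spleen arrays lay below those of resolving lung but overlapped those of control lung.

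Skil encodes SnoN, a corepressor of SMAD target genes whose transcription TGF-beta is known to induce in a negative feedback. Its values were 8.26, 7.74 and 7.52 in resolving lung, 7.19, 6.84 and 7.02 in resolving spleen and 8.09, 7.69 and 7.56 in control lung. All 3 resolving spleen arrays lay below all 6 lung arrays, and in each group replicate 1 was highest. Resolving lung was 0.82 above resolving spleen (SE 0.21, 95% interval 0.35 to 1.30, limma adjusted p = 0.0617), a 1.77-fold higher level just short of the threshold. With the replicate number as a block in the fit of all 9 arrays it passed (adjusted p = 0.0172), and with that block and only the 6 arrays of injured mice it did not (adjusted p = 0.0914). Over the 21 alternatives 5 passed, between 0.0172 and 0.175. Resolving spleen was 0.77 below control lung (difference -0.77, SE 0.21, limma adjusted p = 0.0736), where 6 of 20 alternatives passed, the block among them (adjusted p = 0.0180, range 0.0180 to 0.212). The lung groups differed by 0.056 (95% interval -0.42 to 0.53).

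Ski, the relative of Skil with the same partners, was at 7.72, 7.77 and 8.13 in resolving lung, 7.67, 7.91 and 7.90 in resolving spleen and 8.05, 8.00 and 8.13 in control lung. Resolving spleen lay below control lung without overlap, by 0.23 in mean (difference -0.23, SE 0.12, limma adjusted p = 0.357). Resolving lung overlapped both, at -0.19 from control lung (SE 0.12, adjusted p = 0.540) and 0.047 from resolving spleen (SE 0.12, adjusted p = 0.895).

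**Figure D2:**
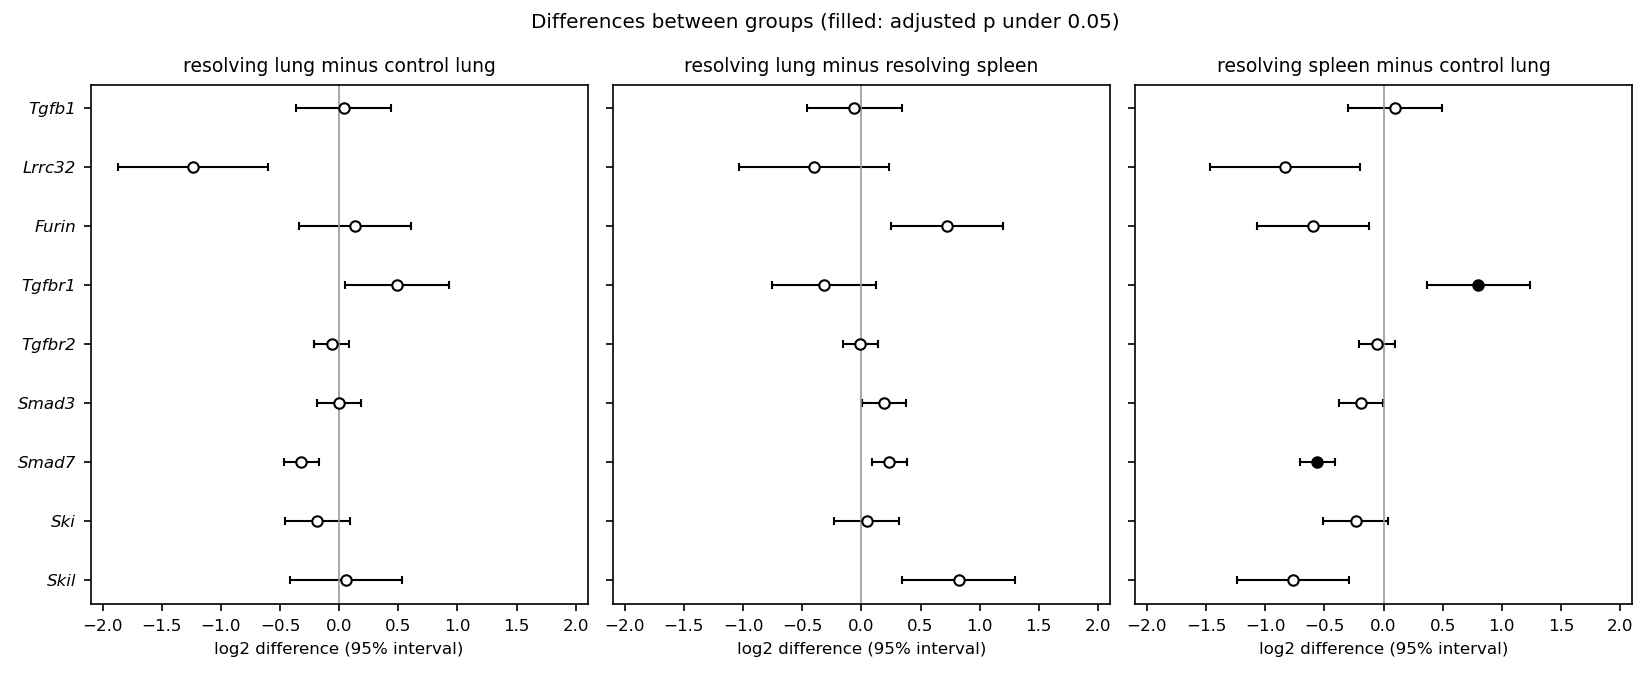
Log2 difference on the x axis for the 9 genes above the dim level on the y axis (Tgfb3 is left out), with its 95% interval from the fit of all 9 arrays, for resolving lung minus control lung (left), resolving lung minus resolving spleen (middle) and resolving spleen minus control lung (right). Filled points have an adjusted p under 0.05; they are Tgfbr1 (0.80) and Smad7 (-0.56) in the right panel.

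Over the 10 genes together the median difference was -0.0014 between resolving lung and control lung, 0.12 between resolving lung and resolving spleen and -0.23 between resolving spleen and control lung, against 0.0086, 0.0091 and -0.0028 over all genes tested. The arrays did not overlap for 2 of 10 genes between resolving lung and control lung (16.3% of all genes), Lrrc32 and Smad7, both lower in resolving lung. They did not overlap for 4 of 10 between resolving lung and resolving spleen (23.1%), Furin, Smad3, Smad7 and Skil, all higher in resolving lung. Between resolving spleen and control lung it was 6 of 10 (25.5%): Lrrc32, Furin, Smad7, Ski and Skil were lower in resolving spleen and Tgfbr1 was higher. Over all genes the arrays lay apart as higher and lower in 8.79% and 7.51%, 11.3% and 11.8%, and 13.8% and 11.6% of cases in the order of these comparisons. Every array showed 9 of the 10 genes above the dim level, Tgfb3 being the exception, and among the 9877 genes above it in at least 3 arrays the shares called were 0.952%, 11.1% and 12.4% in the order of the comparisons.

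Resolving lung replicate 1 was the array farthest from its group in these genes. The root mean square of its 10 departures from the mean of the other two arrays was 0.56, against 0.12 to 0.33 in the other eight arrays. Lrrc32 was 1.16 below the other two, while Furin was 0.74, Tgfb1 0.67, Skil 0.64 and Tgfbr1 0.52 above them. Tgfbr2, Smad3, Smad7 and Tgfb3 departed by 0.091 or less in that array. The pooled SDs of these 4 genes were 0.062, 0.092, 0.060 and 0.15. Marker averages of macrophages and fibroblasts were the highest of all 9 arrays there, and their part in these departures was not tested.

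**Figure D3:**
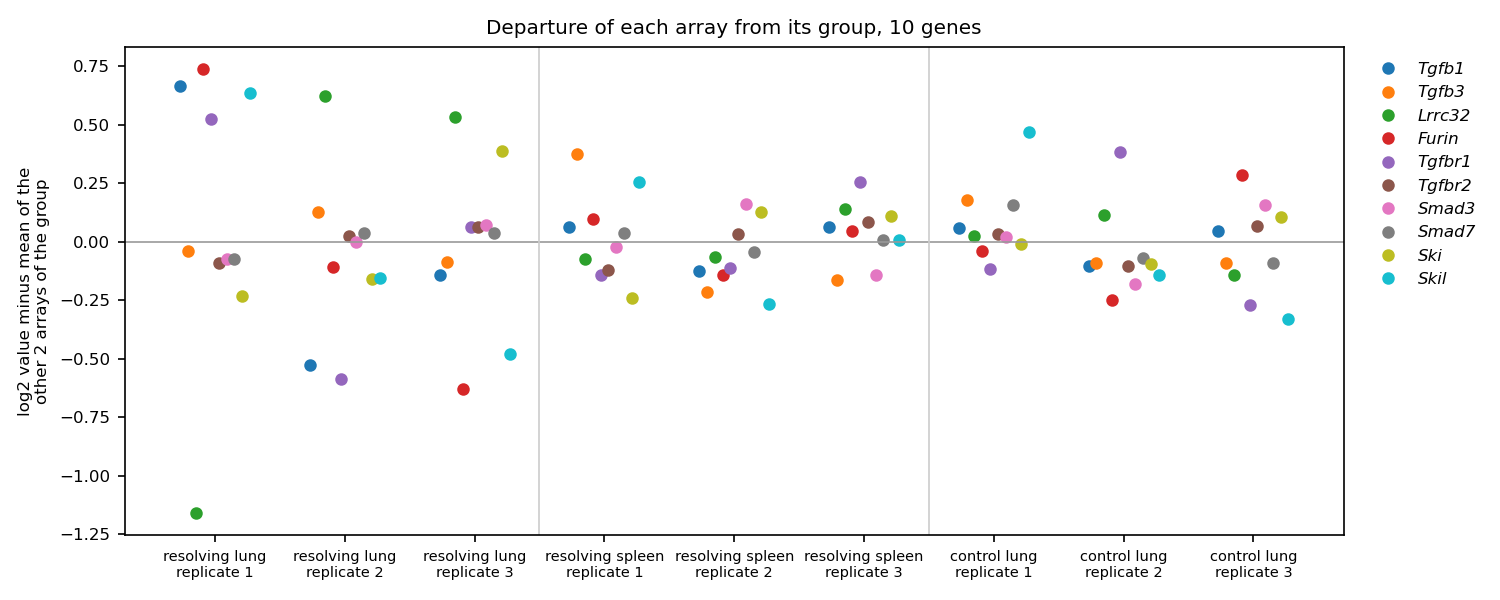
Departure of each array (x axis, resolving lung, resolving spleen and control lung, replicates 1 to 3) from the mean of the other 2 arrays of its group, in log2 units on the y axis, with 1 coloured point for each of the 10 genes. Resolving lung replicate 1 reaches from -1.16 for Lrrc32 to 0.74 for Furin, and no array of resolving spleen or control lung departs by more than 0.47.

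A further 63 genes of the pathway were listed by role, of which 62 had a row and 40 lay above the dim level in at least 3 arrays. Smad1 was not analysed here. Between resolving lung and control lung 0 of 62 passed, with 5 higher and 13 lower at an unadjusted p under 0.05 (7.61% and 6.4% of all genes). Nearest to the threshold was Smurf1, a ubiquitin ligase that Smad7 brings to the receptor, with readings of 6.26, 6.22 and 6.64 in resolving lung, against 7.13, 7.01 and 7.03 in control lung (difference -0.68, SE 0.11, limma adjusted p = 0.0526). Smurf1 was called lower with a trend in the variance prior (limma adjusted p = 0.0493). It was also called lower among genes above the dim level (0.0305, together with Bambi and Tgif1). Without resolving lung replicate 3 it was called lower too (0.0184, together with the coactivator gene Crebbp). Ltbp3 passed in that last fit as well, but lay under the dim level on every array, so no direction is given. Between resolving lung and resolving spleen 7 passed as higher and 1 as lower (2.65% and 2.82% of all genes). The 7 include Ltbp3, whose readings are under the dim level on every array. Between resolving spleen and control lung 0 passed as higher and 7 as lower (3.49% and 2.67%). In the comparison within injured mice the 6 epithelial markers averaged 6.25 to 6.94 in resolving lung and 3.30 to 4.69 in resolving spleen, and the 5 B cell markers 4.88 to 5.25 and 6.01 to 7.25, and their part in the pathway differences was not tested.

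Among 10 genes known to be induced by TGF-beta, 3 passed as higher in resolving lung than in resolving spleen (2.65% of all genes). The same 3 passed as lower in resolving spleen than in control lung (2.67%), and these comparisons share the spleen arrays. Itgae encodes CD103, the integrin chain that binds E-cadherin on epithelium. It was at 8.58, 8.50 and 8.30 in resolving lung, 6.70, 7.14 and 7.22 in resolving spleen and 7.98, 8.01 and 8.55 in control lung. Its difference between resolving lung and resolving spleen was 1.44 (SE 0.19, limma adjusted p = 0.00553) and between resolving spleen and control lung -1.16 (SE 0.19, adjusted p = 0.0105). Cdkn1a, the cell cycle inhibitor p21, averaged 8.07 ± 0.39 in resolving lung, 5.46 ± 0.40 in resolving spleen and 8.06 ± 0.17 in control lung (SD, n = 3 each), with differences of 2.61 (SE 0.24, adjusted p = 0.00196) and -2.60 (SE 0.24, adjusted p = 0.00102). Junb, an AP-1 subunit, was at 9.99, 9.78 and 9.77 in resolving lung, 9.04, 9.37 and 8.58 in resolving spleen and 10.15, 9.98 and 10.20 in control lung, with differences of 0.85 (SE 0.18, adjusted p = 0.0333) and -1.11 (SE 0.18, adjusted p = 0.0106). The first Junb call was lost in 12 of 21 alternatives, among them the replicate block in all 9 arrays, the fit of only these 2 groups and every fit without 1 array except that without resolving spleen replicate 2, while the second held in all 20. Of these genes only Cdkn1a remained past the threshold between resolving lung and resolving spleen when the replicate number was a block in the 6 arrays of injured mice (adjusted p = 0.0496), a fit with few residual degrees of freedom that called 1 of the 62 genes and 175 of all genes.

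The matrix gene Tgfbi, a classical TGF-beta target, had a large but uneven difference. It was at 9.09, 6.65 and 7.12 in resolving lung, 6.02, 4.76 and 4.31 in resolving spleen and 6.09, 5.11 and 4.18 in control lung, so that every resolving lung array lay above all others. The difference of resolving lung was 2.49 from control lung (SE 0.74, limma adjusted p = 0.184) and 2.59 from resolving spleen (SE 0.74, adjusted p = 0.0910). The difference from resolving spleen passed with the replicate number as a block in all 9 arrays (SE 0.28, adjusted p = 0.00938) and among genes above the dim level (adjusted p = 0.0409), but not with the block in the 6 arrays of injured mice. Macrophages also express Tgfbi, and replicate 1 of each group had both its highest Tgfbi value and its highest macrophage marker average, a relation whose part in the difference was not tested. Pmepa1, which encodes a feedback inhibitor of SMAD signalling, was 0.65 above control lung (SE 0.41, adjusted p = 0.527), and Klf10, a zinc finger factor, 0.38 (SE 0.23, adjusted p = 0.519). Without resolving lung replicate 1 these were 0.10 for Pmepa1 and 0.083 for Klf10, and 1.76 for Tgfbi.

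Among 20 regulators of receptors and SMADs, Bambi and Tgif1 stood in the same order of groups as Smad7. That order of means was not particular to them. Tab2 had it too, at 8.97 in control lung, 8.88 in resolving lung and 8.64 in resolving spleen, as did others of the 20. Bambi encodes a decoy receptor without a kinase. It was at 4.84, 5.24 and 4.91 in resolving lung, 3.68, 3.32 and 3.05 in resolving spleen and 6.03, 5.89 and 5.74 in control lung, with 1 of 3 resolving spleen arrays above the dim level. With the resolving spleen arrays that were under the dim level set to it, the Bambi mean was at least 1.50 log2 units higher in resolving lung than in resolving spleen. On the same terms resolving spleen was lower than control lung by at least 2.38. On the values as deposited, the difference between resolving spleen and control lung passed (limma adjusted p = 4.43e-04). Tgif1, a homeodomain corepressor of Smad2 and Smad3, averaged 7.67 ± 0.33 in resolving lung, 6.82 ± 0.11 in resolving spleen and 8.54 ± 0.11 in control lung (SD, n = 3 each). Its differences were 0.85 between resolving lung and resolving spleen (SE 0.15, adjusted p = 0.0185), a call lost in 5 of 21 alternatives (without any 1 of the resolving spleen arrays, with only these 2 groups and with the block in 6 arrays), and -1.72 between resolving spleen and control lung (SE 0.15, adjusted p = 8.87e-04). Both were also separate between resolving lung and control lung, at -0.89 for Bambi (SE 0.17, adjusted p = 0.0722) and -0.87 for Tgif1 (SE 0.15, adjusted p = 0.0620), short of the threshold. Tab2, an adaptor of the kinase TAK1, was lower in resolving spleen than in control lung (difference -0.33, SE 0.077, adjusted p = 0.0430), a call lost in 13 of 20 alternatives. Dab2, an endocytic adaptor of the receptors, was at 6.04, 3.44 and 2.91 in resolving lung, 2.31, 2.66 and 2.49 in resolving spleen and 3.77, 2.91 and 2.76 in control lung, high in 1 resolving lung array alone, without which it was 0.031 above control lung. The ubiquitin ligase gene Nedd4l was at 5.68, 6.58 and 6.76 in resolving lung, 7.03, 7.03 and 7.07 in resolving spleen and 7.38, 7.14 and 7.16 in control lung and did not pass (resolving lung minus control lung -0.88, SE 0.24, adjusted p = 0.159).

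**Figure D4:**
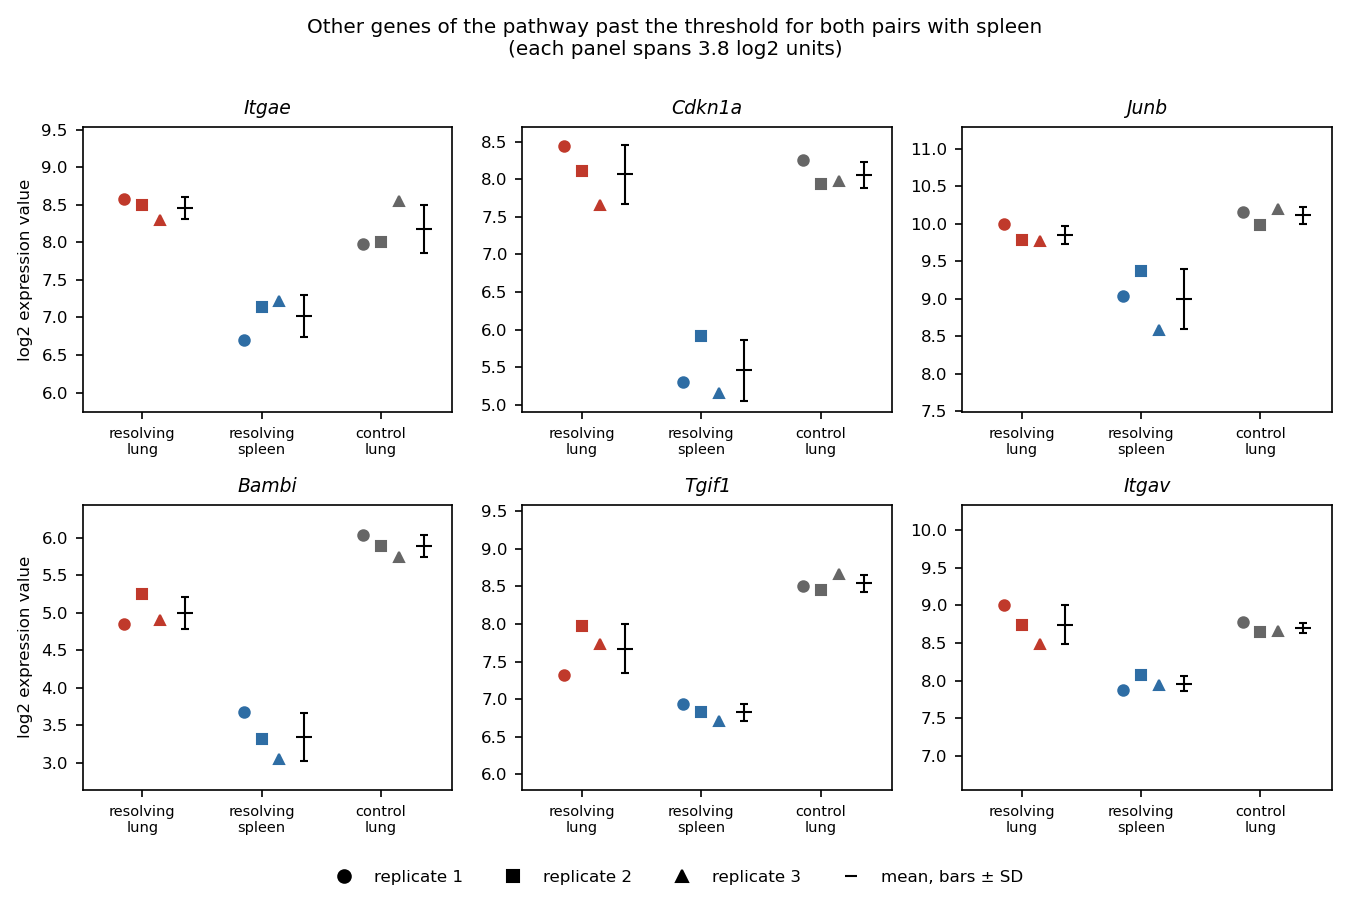
Log2 expression value (y axis) in every array, by group on the x axis, for the 6 other pathway genes past the threshold in both comparisons with resolving spleen. Symbols are replicates 1, 2 and 3, with the mean ± SD beside them (n = 3); Cdkn1a lies between 5.16 and 5.91 in resolving spleen and between 7.66 and 8.44 in both lung groups.

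Of 12 genes of the ligand and its latent complex, 2 passed between resolving lung and resolving spleen (5.47% of all genes). They were Itgav, higher in resolving lung, and Ltbp3. Itgav encodes the integrin alpha chain that pulls latent TGF-beta open. It was at 9.01, 8.73 and 8.49 in resolving lung, 7.87, 8.07 and 7.94 in resolving spleen and 8.78, 8.65 and 8.66 in control lung, with differences of 0.78 between resolving lung and resolving spleen (SE 0.13, limma adjusted p = 0.0114) and -0.74 between resolving spleen and control lung (SE 0.13, adjusted p = 0.0130). The first Itgav call was lost without resolving spleen replicate 1 and with the block in 6 arrays, and the second without resolving spleen replicate 1, resolving spleen replicate 3 or control lung replicate 1. Its partner Itgb8 ran otherwise: 7.53, 6.52 and 6.44 in resolving lung, 6.58, 6.88 and 6.63 in resolving spleen and 6.29, 6.12 and 6.16 in control lung. Every array of injured mice was above control lung, but no Itgb8 difference passed in the fit of all 9 arrays. Resolving lung minus control lung was 0.64 (SE 0.26, limma adjusted p = 0.318), and 0.29 without resolving lung replicate 1. Resolving spleen minus control lung was 0.51 and passed with only these 2 groups (limma adjusted p = 0.0353). It also passed without resolving lung replicate 1 (adjusted p = 0.0181) and without replicate 1 of both lung groups (adjusted p = 0.0299). Ltbp3, a binding protein of the latent complex, stayed under the dim level on every array, and no fold is given for its call (adjusted p = 0.0371), which was lost in 12 of 20 alternatives. Mmp14, a membrane protease, was at 7.46, 5.53 and 5.35 in resolving lung, 4.64, 4.87 and 4.45 in resolving spleen and 5.13, 4.54 and 5.25 in control lung, without a call (resolving lung minus control lung 1.14, SE 0.50, adjusted p = 0.361, and 0.47 without resolving lung replicate 1). Thbs1, the matrix protein thrombospondin 1, which can activate latent TGF-beta, read 4.00 to 6.98 in resolving lung, 3.03 to 4.53 in resolving spleen and 5.08 to 6.88 in control lung, with replicate 1 highest in each group. Only 1 of 3 resolving spleen arrays was above the dim level. With the others set to it, the Thbs1 difference in means was at least 1.54 from resolving lung and at least 2.03 from control lung. On the values as deposited neither difference passed (limma adjusted p = 0.276 and 0.158). Both passed with the replicate number as a block in all 9 arrays (adjusted p = 0.0325 and 0.0146), and the difference between the injured groups did not with the block in their 6 arrays.

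Among 9 further receptors and coreceptors 1 passed, as lower in resolving lung than in resolving spleen (2.82% of all genes). Acvr1b, a type I receptor of activins, was lower in resolving lung than in resolving spleen (difference -1.17, SE 0.24, limma adjusted p = 0.0282), at 5.11, 4.73 and 5.25 in resolving lung and 6.48, 6.22 and 5.89 in resolving spleen, a call lost in 8 of 21 alternatives. Acvr2a, a type II receptor of activins, read 5.19, 4.78 and 5.04 in resolving lung, 4.25, 4.39 and 4.51 in resolving spleen and 5.29, 4.90 and 5.99 in control lung. Resolving spleen lay below both lung groups, at -1.01 from control lung (SE 0.25, limma adjusted p = 0.0514), a difference that passed in 7 of 20 alternatives. The coreceptor gene Tgfbr3 read 3.18, 3.97 and 4.33 in resolving lung and 4.82, 4.45 and 4.36 in resolving spleen, without a call (adjusted p = 0.187). Eng, another coreceptor, was above 5 only in replicate 1 of resolving lung (5.30) and of control lung (6.07), the arrays with the highest endothelial marker averages. None of 5 other SMAD genes passed in any comparison. Smad4, the common partner, was at 7.92, 8.65 and 8.72 in resolving lung, 8.68, 8.60 and 8.72 in resolving spleen and 8.96, 9.02 and 8.92 in control lung (resolving lung minus control lung -0.53, SE 0.19, adjusted p = 0.245). Smad5, a SMAD of bone morphogenetic protein signalling, differed by -0.40 between resolving lung and control lung (SE 0.15, adjusted p = 0.274), and Smad6 and Smad9 stayed under the dim level in every array. Of 6 convertases related to furin, 1 lay above the dim level in at least 3 arrays, Pcsk7, which did not pass in any comparison.

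Lrrc32 was the single one of the 10 genes whose group means spanned at least 1 log2 unit, and the genes most like it were sought over the 9 arrays. After each gene was centred on its own mean, the smallest root mean square differences from Lrrc32 were those of Arid5a (0.12), Satb1 (0.17) and Rab3ip (0.17). Arid5a, an RNA-binding protein of the ARID family, averaged 6.03 in resolving lung, 6.36 in resolving spleen and 7.13 in control lung. Satb1, a chromatin organizer of T cells, averaged 7.47, 8.12 and 8.89 in these groups, and Rab3ip 7.63, 7.81 and 8.58. In all 3, as in Lrrc32, resolving lung replicate 1 was the lowest of the 9 arrays, so 1 array carries part of this likeness.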

How the data were processed

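The values were deposited by the authors as log2 expression values per transcript row, with RMA, Affymetrix Expression Console and Partek named without versions or order, per the submitters' processing notes. The log2 scale was read from the values (1.07 to 12.85), and the genome build was not given in the sources used here. RMA removes background and equalizes arrays by quantiles, and whether all 9 arrays were processed together was not given in the sources used here.

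Transcript accessions were matched to RefSeq genes (GRCm38.p6), used for names. Of 31351 rows, 21057 had 1 symbol and 10294 had none. Where a gene had more than 1 row, as 35 did, the brightest on average stood for it, giving 21022 genes. Differences were fitted over all 9 arrays with limma 3.58.1 in R 4.3.3 (6 residual degrees of freedom), with two-sided p-values adjusted by Benjamini-Hochberg over all 21022 genes, and called at 0.05. With 3 arrays a side, exact permutation has a smallest p of 0.1 and was not used. The fit was tested on simulated data, and no result of that test is given here.

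The members and lists were chosen with earlier results of these data known. All 10 members are named, with the other pathway genes past the threshold and up to 3 per role and comparison with the largest difference. Smurf1, Crebbp, Xist and Ddx3y were named after their values were seen. For a member whose group means spanned at least 1, the 3 genes with the smallest root mean square difference from it were named. The fit had no block for replicate number. Deviations of same-numbered arrays from their group means correlated at 0.174, 0.132 and 0.161 between resolving lung and resolving spleen. They correlated at 0.291, 0.068 and 0.100 between resolving lung and control lung and at 0.077, -0.064 and 0.049 between resolving spleen and control lung. The labels do not pair the samples. Differently numbered arrays correlated at -0.140 to 0.017 between resolving lung and resolving spleen, all below the same-numbered values. They correlated at -0.218 to 0.197 between resolving lung and control lung and at -0.133 to 0.094 between resolving spleen and control lung. Xist was low in replicate 1 of both groups from injured mice. The highest correlation, 0.291, joined an injured and an uninjured sample. Whether same-numbered samples share a mouse is therefore not settled here, and the main fit takes no account of such pairing. Alternatives covered the groups fitted, the variance prior, the block, a filter on dim genes, centring, quantile normalization, row choice, array weights and each array left out. The block with only the 6 arrays of injured mice was added after seeing the data.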

Additional observations from a re-analysis of the deposited data

How the results depend on the processing

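Of 607 values of the 30 member differences under alternatives, 546 kept direction and side of the threshold, 11 lost the call of Tgfbr1 between resolving spleen and control lung, 21 gained a call and 29 changed sign. No difference that changed sign exceeded 0.13 as reported or had an adjusted p below 0.511 after the change. The cause was not tested for any of these changes, beyond the fewer arrays or genes of the setting itself. For resolving lung minus control lung, array weights gave -0.076 for Tgfb1, 0.020 for Tgfb3 and Smad3 and -0.020 for Skil; centring on the median gave 0.0077 for Tgfb3 and 0.0090 for Smad3, and quantile normalization 0.0084 for Tgfb3. Leaving out replicate 1 of both lung groups gave -0.17 for Tgfb1, 0.071 for Tgfb3, -0.13 for Furin and 0.031 for Smad3. Leaving out 1 array in turn gave -0.19 to 0.21 for Tgfb1, -0.044 to 0.057 for Tgfb3, -0.11 to 0.34 for Furin, -0.061 to 0.052 for Smad3 and -0.16 to 0.22 for Skil. For resolving lung minus resolving spleen, array weights gave 0.0011 and leaving out replicate 1 of both lung groups 0.022 for Tgfbr2, and leaving out 1 array in turn gave -0.28 to 0.12 for Tgfb1, -0.048 to 0.022 for Tgfbr2 and -0.082 to 0.12 for Ski.

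Between resolving lung and control lung, with 1 array left out 0 to 1 of the 10 genes, 0 to 3 of the 62 pathway genes and 4 to 212 of all genes were called. The pathway count was 1 with a trend in the variance prior and 3 among genes above the dim level, and all genes numbered 0 with only these 2 groups, 15 with the replicate block, 235 above the dim level, 63 with array weights and 15 without both arrays 1. Between resolving lung and resolving spleen, the 10 genes gave 1 call with the replicate block, 2 above the dim level, 2 with array weights, 1 without both arrays 1 and 0 to 2 with 1 array left out. The pathway genes gave 5 with only these 2 groups, 1 with the replicate block in the 6 arrays of injured mice and 3 to 11 with 1 array left out, and all genes 704, 175 and 508 to 1131 in these settings. Between resolving spleen and control lung, the 10 genes gave 5 with only these 2 groups, 1 with quantile normalization, 1 with all rows tested, 4 with array weights and 1 to 5 with 1 array left out. The pathway genes gave 12 with only these 2 groups and 5 to 10 with 1 array left out, and all genes 681 to 1793 with 1 array left out. The replicate block in all 9 arrays gave 982 and 1126 calls over all genes in the comparisons of resolving spleen with resolving lung and with control lung. The values given for Tgfb3 compare readings under the dim level and carry no direction, and Tgfb3 has no value among genes above that level.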
